A study of Mus musculus with 6 samples.

Results

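Sorted prostate epithelial cells marked by Clu in intact mice were compared, across all genes, with sorted cells marked in castrated mice of the Nkx3.1;EYFP line (Nkx-marked cells). The comparison used 4 of the 6 bulk RNA-seq libraries of the series, chosen by their labels: Clu intact 1 and 2, and Nkx castrate 1 and 2. It asks how intact Clu-marked cells differ from luminal cells that survive castration. The other 2 libraries, of Nkx-marked cells from intact mice (Nkx intact), entered the model for its estimate of the spread, and their levels stand beside some genes as a description. The Clu;tdTomato line joined the driver Clu-CreER(T2) to the reporter allele Gt(ROSA)26Sortm14(CAG-tdTomato)Hze from a B6.Cg stock. The Nkx3.1;EYFP line joined Nkx3.1-CreER(T2) to the reporter allele Gt(ROSA)26Sortm1(EYFP)Cos from a B6.129X1 stock. All mice were male, with an age range of 7 to 13 weeks over the whole study. Surgery, or none in intact mice, was at 8 weeks of age, and tissue was taken 4 weeks later. A CreER(T2) driver marks the cells that expressed its gene when the recombinase was induced, so each group is the marked part of the epithelium and not a cell type as such. The labels give no induction time and no gate beyond the marker. They also do not say whether a driver disrupts a copy of its own gene, or whether replicates came from separate animals. The p-values below are therefore based on library-to-library spread alone, and that spread may be technical. Driver, reporter, line background, marked population and hormone state all differed together between the groups, and their parts in a difference cannot be told apart.

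The prostate epithelium lines branching ducts that join the urethra. Distal luminal cells make the secreted proteins of prostatic fluid under androgen control, proximal luminal cells near the urethra carry markers such as Psca and Krt4, and basal cells carry Krt5 and Trp63. Castration withdraws testicular androgen, the gland regresses, and a part of the luminal cells survives and can regrow the gland. Clu encodes clusterin, a secreted chaperone known to be abundant in the regressing prostate.

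Library totals lay between 10537941 and 17412874 counts in the 4 libraries. Levels are given as CPM, the gene's share of the scaled library total on the usual per-million scale, and 1 count was 0.0561 to 0.0941 CPM. Across genes, which do not count as independent replicates, log2(CPM + 1) correlated at 0.981 within Clu intact and 0.939 within Nkx castrate, against 0.862 to 0.89 between the groups. Nkx castrate 1 stood apart: 18516 genes had a count there, against 15261 in Nkx castrate 2 and 15345 to 15778 in the Clu intact libraries. It also had the highest total of the 4, 17412874 counts against 14326063 in Nkx castrate 2. The part of depth in its number of genes was not tested. In Nkx castrate 1 the 20 smooth muscle and fibroblast markers added up to 3070 CPM. The same sum was 743 CPM for the second castrate library, and it lay at 1490 and 1030 CPM for the Clu-marked cells. For the 14 endothelial markers the sum was 1290 and 528 CPM in Clu intact and 577 and 89.4 CPM in Nkx castrate. For the 20 leukocyte markers it was 22.1 and 21.9 CPM against 224 and 33.6 CPM, with 125 and 115 CPM in Nkx intact. The leukocyte sum was thus lower in both Clu intact libraries than in every Nkx library. The general leukocyte gene Ptprc, chosen after its values were seen, read 3.04 and 2.92 CPM against 19.4 and 2.51 CPM, and the B cell gene Ms4a1 had 0 counts in Clu intact against 58 and 14. Seminal vesicle secretion genes summed to at most 5.15 CPM in all 4 libraries. The epithelial adhesion gene Epcam, chosen after its values were seen, read 728 and 839 CPM in Clu intact and 474 and 716 CPM in Nkx castrate. Epithelial RNA was thus present in each library, and whether it came from cells with the reporter was not tested. In bulk RNA, fewer cells of a type and less of its RNA per cell cannot be told apart.

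Of 13846 genes tested with edgeR's quasi-likelihood test (Benjamini-Hochberg adjusted p under 0.05, called below), 1221 (8.82%) were called higher in Clu intact and 1121 (8.1%) lower. In all 2342 genes (16.9%) differed, and 4495 had an unadjusted p under 0.05. The shares of 8.82% higher and 8.1% lower are the background for those counts of every gene list below that use every library. List counts with 1 library left out have another background. It is the number of calls over all genes with that same library left out, given at the end of this paragraph. A change of at least 2-fold with a call was seen for 934 higher genes (6.75%) and 835 lower genes (6.03%). The median log2 fold change (log2FC, positive where Clu intact is higher) over all genes was -0.003, and called genes had a median fold of 2.78 when higher and 2.68 when lower. Large differences were more numerous among the higher genes: 155 higher and 70 lower genes changed at least 16-fold, and 55 and 29 at least 64-fold. All 2342 called genes had libraries that did not overlap between the groups, a pattern seen in 31.5% (higher) and 30% (lower) of all tested genes. Calls depended on which libraries entered. They fell to 417 higher and 270 lower without Clu intact 2 and to 579 and 405 without Clu intact 1. Without Nkx intact 1 they were 913 and 735, and without Nkx intact 2 867 and 739. They rose to 1888 and 1560 when Nkx castrate 1 was dropped and to 2010 and 1844 when Nkx castrate 2 was. A set of 385 higher and 230 lower genes was called whichever 1 library was left out, and these are the genes called "stable" below.

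**Figure D1:**
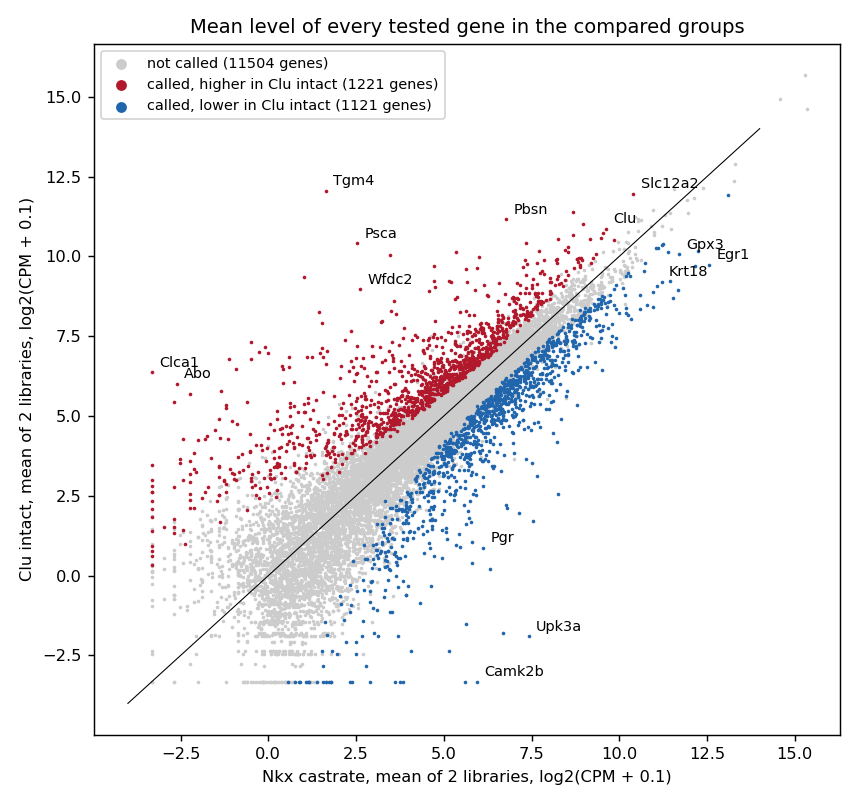
Mean level of every tested gene in Nkx castrate (x axis) and Clu intact (y axis), both as log2(CPM + 0.1) over 2 libraries, with 1221 genes called higher in red, 1121 called lower in blue and the others in grey. Tgm4, Psca and Clca1 lie far above the line of equal levels, and Camk2b and Upk3a far below it.

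The 10 largest differences upward included genes of the prostatic secretion and genes with next to no reads in Nkx castrate. Clca1, a secreted regulator of mucus and chloride channels, read 87.8 and 77.4 CPM in Clu intact and had 0 counts in both Nkx castrate libraries, which is at least 866-fold higher when 3 counts over the 2 libraries stand in for the 0. Tgm4, the prostate transglutaminase of seminal fluid coagulation, read 5023 and 3482 CPM against 4.21 and 1.85 CPM (log2FC 10.42 ± 0.51 SE, edgeR adjusted p = 0.000102). The serine protease gene Tmprss4 read 9.03 and 12.7 CPM against 0 counts, at least 112-fold higher. Each of these 3 genes was high in both Clu intact libraries, with no overlap. Abo, the glycosyltransferase of the ABO blood group, read 63 and 65.4 CPM against 2 counts over the castrate group, a ratio of 1010 (95% counting interval 278 to 8310). Ripply3, a transcriptional co-repressor, read 42.1 and 43.8 CPM against 2 counts, a ratio of 673 (186 to 5560). Msmb, the secreted beta-microseminoprotein, read 163 and 160 CPM against 0.337 and 0.887 CPM (log2FC 8.08 ± 0.59). The Clu intact libraries were close to each other for all 3, while the castrate level rested on few counts. Psca, the prostate stem cell antigen of the cell surface, read 1344 and 1385 CPM against 9.43 and 1.92 CPM (log2FC 7.88 ± 0.67, edgeR adjusted p = 0.000461). Syt8, a synaptotagmin, read 54.9 and 47.1 CPM against 0.224 and 0 CPM (log2FC 8.56 ± 0.71), and Acsm3, a medium-chain acyl-CoA synthetase, 117 and 105 CPM against 0.73 and 0 CPM (log2FC 8.07 ± 0.72). C1rb, a complement protease gene with near-identical relatives and therefore an uncertain count, read 690 and 615 CPM against 1.35 and 2.51 CPM (log2FC 8.42 ± 0.40). All of these were stable except Tmprss4, whose call ended without Clu intact 2 (edgeR adjusted p = 0.0564). The size of some rested on 1 castrate library: with Nkx castrate 1 left out the log2FC was 9.46 for Psca, 11.16 for Tgm4 and 7.49 for Msmb, and with Nkx castrate 2 left out it was 7.19 for Psca and 8.87 for Msmb. Fitted changes were 7.77 for Syt8, 7.24 for Acsm3 and 8.46 for Ripply3 (from 9.20) without Nkx castrate 2, and the library left by removing Nkx castrate 1 has 0 counts of all 3.

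The largest differences downward had few or no reads in Clu intact. Camk2b, a calcium and calmodulin dependent kinase subunit, had 0 counts in both Clu intact libraries and 43.3 and 80.5 CPM in Nkx castrate, at least 445-fold lower. It read 92 and 54.9 CPM in the Nkx intact libraries, so it was present in all 4 libraries of the Nkx3.1;EYFP line and in none of the Clu;tdTomato line. Trim12a, a TRIM family gene with close copies and an uncertain count, had the same pattern, with 0 counts against 14 and 12.7 CPM (at least 101-fold lower) and 10.4 and 5.63 CPM in Nkx intact. AI838599, Amdhd1 and Psg25 were found only in castrate libraries among the 6. AI838599 read 62.9 and 34.1 CPM (at least 378-fold lower in Clu intact), Amdhd1, an enzyme of histidine breakdown, 9.15 and 19 CPM (at least 100-fold lower), and Psg25, a pregnancy-specific glycoprotein of a family of close copies, 11.6 and 12.7 CPM (at least 90.6-fold lower). Upk3a, a uroplakin of the bladder surface, read 0.337 and 0 CPM in Clu intact and 146 and 197 CPM in Nkx castrate (log2FC -9.84 ± 0.76, edgeR adjusted p = 0.000338). Pnliprp2, a pancreatic lipase-related protein, read 0 and 0.376 CPM against 64.5 and 140 CPM (log2FC -9.08 ± 0.78), and Stra6l, a retinol transport protein, 0.506 and 0 CPM against 34.8 and 65.1 CPM (log2FC -7.51 ± 0.79). The immunoglobulin family gene Igsf21 had 2 counts over Clu intact against 18.4 and 52.9 CPM, a ratio of 374 (95% counting interval 103 to 3090). Klk1, a kallikrein of a family of close copies, had 2 counts against 24.6 and 8.5 CPM, a ratio of 199 (54.7 to 1640). These 10 genes were stable to leaving out a library, and their groups did not overlap. Without Clu intact 2 the fitted log2FC was -8.92 for Upk3a and -6.57 for Stra6l, and without Clu intact 1 it was -8.02 for Pnliprp2, -7.47 for Igsf21 (from -8.48) and -6.37 for Klk1 (from -7.37). It was -7.52 for Igsf21 without Nkx castrate 2 and -6.39 for Klk1 without Nkx castrate 1, and the library left by removing Clu intact 2 has 0 counts of both. The call of Amdhd1 ended in DESeq2 (adjusted p = 0.127), and in limma-voom those of Pnliprp2 (adjusted p = 0.0676), Klk1 (0.107) and Igsf21 (0.125) ended.

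**Figure D2:**
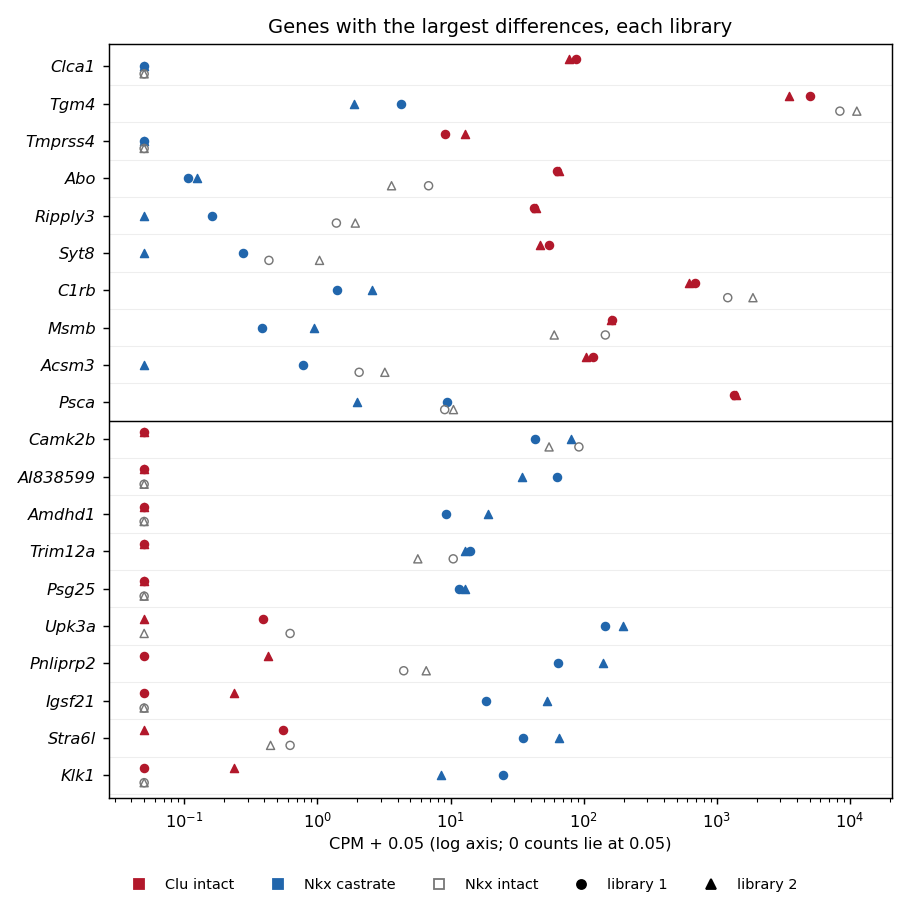
CPM (plus 0.05, log axis) in each library of the 10 most changed genes per direction: Clu intact in red, Nkx castrate in blue, Nkx intact in open grey, with circles for library 1 and triangles for library 2. Red and blue points do not overlap in any row, and grey points sit with red for Tgm4, C1rb and Msmb and with blue for Camk2b and Trim12a.

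Among 23 tested prostate lineage factors and hormone receptors, 8 were called higher and 3 lower (8.82% and 8.1% of all genes; median log2FC -0.043, a sign that turned positive, 0.022, when only library totals were scaled). Clu, the marker gene of the Clu-marked cells, read 1808 and 1934 CPM in Clu intact and 721 and 844 CPM in Nkx castrate (log2FC 1.26 ± 0.20, edgeR adjusted p = 0.00583). It was higher in both Clu-marked libraries, yet the castrate libraries had levels above the 323 and 245 CPM of Nkx intact. Lower members of the list numbered 6 when Nkx castrate 1 was dropped.

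The sex steroid receptor genes Pgr and Esr1 were lower in Clu intact and stable (both chosen after their values were seen). Pgr, the progesterone receptor, read 1.01 and 2.45 CPM against 77.8 and 61.9 CPM (log2FC -5.34 ± 0.46, edgeR adjusted p = 0.00049), and -6.07 without Clu intact 2. Esr1, the estrogen receptor alpha gene, read 65.7 and 47.3 CPM against 207 and 383 CPM (log2FC -2.38 ± 0.31). Nkx intact cells had 5.36 and 8.49 CPM of Pgr and 109 and 115 CPM of Esr1, below both castrate libraries for each gene.

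Epithelial transcription factors made up most of the higher members. Klf5, a Krüppel-like factor of epithelial growth, read 872 and 863 CPM against 176 and 155 CPM (log2FC 2.39 ± 0.17, edgeR adjusted p = 0.000254). Ehf, an ETS factor of secretory epithelia, read 1193 and 1314 CPM against 320 and 420 CPM (log2FC 1.76 ± 0.22). The ETS factor Elf3 and the Runt factor Runx2, both chosen after their values were seen, were also higher, at 187 and 210 against 64.5 and 71 CPM for Elf3 and 56.9 and 47.8 against 14.3 and 6.95 CPM for Runx2. Runx2 and its relative Runx1 went opposite ways: Runx1 (chosen after its values were seen) read 155 and 157 CPM against 305 and 409 CPM (log2FC -1.20 ± 0.24). The 4 higher factors were stable, while the call of Runx1 ended without Clu intact 1 (edgeR adjusted p = 0.094) or 2 (0.111). Without Nkx castrate 1 the log2FC of Runx2 was 2.91, from 2.30. The luminal pioneer factor Foxa1 (501 and 526 against 361 and 397 CPM) and the prostate homeobox gene Hoxb13 (137 and 144 against 78.1 and 145 CPM), chosen after their values were seen, did not pass the test. Both passed as higher without Nkx castrate 2 (edgeR adjusted p = 0.0345 and 0.0052).

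**Figure D3:**
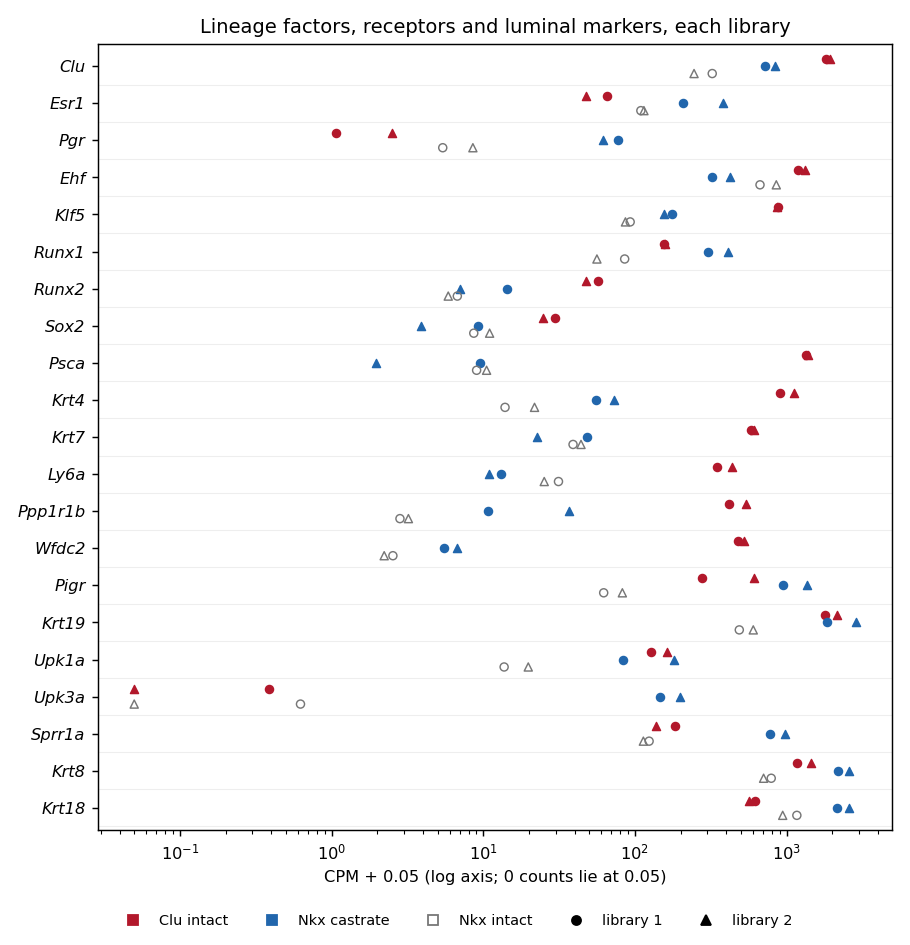
CPM (plus 0.05, log axis) of lineage factors, receptors and luminal or urothelial markers in each library, with Clu intact in red, Nkx castrate in blue and Nkx intact in open grey. Red points lie right of blue ones for Clu, Klf5 and the proximal markers Psca, Krt4, Krt7, Ly6a, Ppp1r1b and Wfdc2, and left of them for Pgr, Esr1, Upk3a, Sprr1a and Krt18.

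Secreted proteins of the distal gland were higher in Clu intact. Of 25 tested distal luminal secretory markers, 12 were called higher and 2 lower (median log2FC 2.07), and their summed level was 9650 and 7950 CPM in Clu intact against 915 and 1410 CPM in Nkx castrate. In Nkx intact the same sum was 16800 and 21700 CPM. Pbsn, the androgen-regulated secretory protein probasin, read 2634 and 1957 CPM against 106 and 112 CPM (log2FC 4.39 ± 0.26, edgeR adjusted p = 0.000153). The mannosidase gene Man1a read 577 and 565 CPM against 125 and 147 CPM (log2FC 2.07 ± 0.20), and the claudin gene Cldn10, chosen after its values were seen, 102 and 150 CPM against 2.24 and 3.1 CPM (log2FC 5.56 ± 0.37). Cldn10 read only 2.87 and 1.58 CPM in Nkx intact, whereas Pbsn read 5393 and 6937 CPM there. The lower members were Pnliprp1 and Hpgd, both chosen after their values were seen. Pnliprp1, a pancreatic lipase-related protein, read 29.4 and 6.58 CPM against 179 and 422 CPM (log2FC -4.05 ± 0.71). Its log2FC was -5.49 without Clu intact 1, -3.33 without Clu intact 2 and -3.29 without Nkx castrate 2. Hpgd, which inactivates prostaglandins, read 137 and 162 CPM against 233 and 314 CPM (log2FC -0.87 ± 0.20), a call that ended without any 1 of the Clu intact or Nkx intact libraries (edgeR adjusted p = 0.064 to 0.192). With single libraries left out, 9 to 15 members were called higher. Azgp1, a secreted glycoprotein of this list chosen after its values were seen, read 11.1 and 5.08 CPM in Clu intact and 14.6 and 11 CPM in Nkx castrate, against 286 and 252 CPM in Nkx intact.

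Genes known to respond to androgen did not move as 1 block. Of 34 tested, 11 were called higher and 7 lower (median log2FC 0.06). Fkbp5, a co-chaperone of steroid receptors, read 432 and 764 CPM against 33.6 and 19.3 CPM (log2FC 4.50 ± 0.39, edgeR adjusted p = 0.000529). Mme, the peptidase neprilysin, read 771 and 837 CPM against 42.7 and 81.1 CPM (log2FC 3.70 ± 0.31). Acsl3, a long-chain acyl-CoA synthetase, went the other way, with 100 and 73 CPM against 277 and 428 CPM (log2FC -2.03 ± 0.28). These 3 were stable with no overlap of libraries. Fkbp5 and Mme were also above the Nkx intact libraries, which read 193 and 143 CPM and 301 and 307 CPM. Tmprss2, a protease of luminal cells, read 278 and 289 CPM against 164 and 187 CPM (log2FC 0.69 ± 0.16), and its call ended without any 1 of the Clu intact or Nkx intact libraries (edgeR adjusted p = 0.0619 to 0.179). Lower calls were 2 without Clu intact 1, 2 without Clu intact 2, and 9 without either Nkx castrate library, and higher calls were 7 without Clu intact 2.

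Androgen response elements in DNA are built of paired half-sites, of which the best known reads AGAACA and, on the other strand, TGTTCT. The 250 bases before the start of Pbsn, whose promoter is a textbook androgen target, hold 1 such half-site from 95 to 90 bases before the start. It is shown in capitals in the sequence from RefSeq on GRCm38.p6, minus strand, chrX:77853501-77853750, and Pbsn was picked by hand.
Pbsn: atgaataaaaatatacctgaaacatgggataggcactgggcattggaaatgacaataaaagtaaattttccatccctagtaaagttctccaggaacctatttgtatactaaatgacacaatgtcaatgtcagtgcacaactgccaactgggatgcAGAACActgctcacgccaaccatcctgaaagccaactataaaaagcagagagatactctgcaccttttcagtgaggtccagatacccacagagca
Half-sites were counted in such windows of 27025 genes in the RefSeq table, of which 18.2% hold one. Of the tested genes 10687 had a window, and 13% hold the half-site, against 12.9% of genes called higher and 11.2% of genes called lower. In the distal secretory list it is in 6 of 18 windows (33.3%) and in the androgen response list in 5 of 24 (20.8%). Of the 6, Pbsn and Sbp were called higher, and Trpv6, Dpp4, Mgll and Creb3l4 were not called. Tgm4 and Msmb, which differed more than Pbsn, are not among the 6, for want of a match or of a window. Of the 5, Abcc4, Tsc22d1 and Spdef were called higher, and Sgk1 and Creb3l4 were not called. A match describes letters in the window and is not a shown binding site.

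Markers of proximal luminal cells were called higher more often than lower. Of 26 tested, 14 were called higher and 1 lower (median log2FC 1.46), and they summed to 10600 and 12100 CPM against 5080 and 6720 CPM. Clu itself, the gene by which the Clu-marked cells were chosen, is among the 14 and in these sums. Wfdc2, a secreted protease inhibitor, read 476 and 523 CPM in Clu intact and 5.5 and 6.65 CPM in Nkx castrate (log2FC 6.36 ± 0.22, edgeR adjusted p = 3.71e-05). Pglyrp1, a secreted peptidoglycan recognition protein, read 90.3 and 101 CPM against 1.68 and 0.739 CPM (log2FC 6.26 ± 0.48), and Cyp2f2, a cytochrome of airway and glandular epithelium, 568 and 593 CPM against 30 and 43.2 CPM (log2FC 3.99 ± 0.23). All were high in both Clu intact libraries and low in both Nkx castrate and both Nkx intact libraries. Of the textbook markers chosen after their values were seen, the keratin genes Krt4 and Krt7, the surface antigen gene Ly6a and the signalling inhibitor gene Ppp1r1b were each higher and stable. Krt4 read 899 and 1123 CPM against 55.3 and 72.3 CPM (log2FC 3.99 ± 0.28), and Krt7 578 and 613 CPM against 48.3 and 22.7 CPM (log2FC 4.06 ± 0.35). Ly6a, whose close relatives make its count uncertain, read 348 and 433 CPM against 13 and 10.9 CPM (log2FC 5.03 ± 0.23). Ppp1r1b read 418 and 537 CPM against 10.7 and 36.9 CPM (log2FC 4.33 ± 0.53). Dropping Nkx castrate 1 gave a log2FC of 4.72 for Krt7, 3.7 for Ppp1r1b and 7.0 for Pglyrp1, and dropping Nkx castrate 2 gave 5.49 for Ppp1r1b.

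Not every proximal marker followed. Pigr, the receptor that carries antibodies across epithelium, was the 1 lower member, at 277 and 610 CPM against 947 and 1359 CPM (log2FC -1.38 ± 0.37, edgeR adjusted p = 0.0401). Its call ended without Clu intact 1 (log2FC -0.90, edgeR adjusted p = 0.167) or 1 of the Nkx intact libraries (0.0868 and 0.088), and the log2FC was -2.03 without Clu intact 2. Krt19, a keratin gene chosen after its values were seen, did not pass the test. It read 1794 and 2164 CPM against 1855 and 2881 CPM, and once Nkx castrate 1 was dropped it was called lower (log2FC -0.54, edgeR adjusted p = 0.0397). In both groups Krt19 and Pigr were above the Nkx intact libraries, where Krt19 read 487 and 603 CPM and Pigr 62.2 and 82.6 CPM.

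Keratins of all luminal cells were lower in Clu intact. Krt18 (chosen after its values were seen) read 621 and 561 CPM against 2132 and 2590 CPM (log2FC -2.0 ± 0.21, edgeR adjusted p = 0.000987) and was stable. Its partner Krt8 read 1169 and 1441 CPM against 2180 and 2558 CPM (log2FC -0.86 ± 0.20, edgeR adjusted p = 0.0218), a call that ended without any 1 of the Clu intact or Nkx intact libraries (edgeR adjusted p = 0.0658 to 0.189). The Nkx intact libraries had 792 and 705 CPM of Krt8 and 1168 and 942 CPM of Krt18.

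Urothelial markers split. Of 13 tested, 5 were called higher and 4 lower (median log2FC 0.14). Among the lower members beside Upk3a, the cornified envelope gene Sprr1a read 184 and 137 CPM against 776 and 980 CPM (log2FC -2.45 ± 0.22, edgeR adjusted p = 0.000561). Involucrin, Ivl, another cornified envelope gene chosen after its values were seen, read 8.77 and 4.89 CPM against 97.2 and 41.5 CPM (log2FC -3.34 ± 0.50), and -2.60 without Nkx castrate 1. Among the higher members beside Psca, the uroplakin Upk2, chosen after its values were seen, read 20.6 and 23.5 CPM against 0.561 and 2.37 CPM (log2FC 3.93 ± 0.70), the opposite direction to Upk3a. The call of Upk2 ended without Clu intact 2 (edgeR adjusted p = 0.0628), and its log2FC was 3.22 and 5.28 without Nkx castrate 1 and 2. A further pair of uroplakin genes, chosen after their values were seen, did not pass: Upk1a read 127 and 163 CPM against 82.8 and 181 CPM, and Upk1b 205 and 206 CPM against 122 and 154 CPM. Both passed as higher without Nkx castrate 2 (edgeR adjusted p = 0.0322 and 0.0131). Higher members numbered 3 without Clu intact 1 and 2 without Clu intact 2.

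Basal markers were not higher in the Clu-marked cells. Of 21 tested, 0 were called higher and 4 lower (edgeR; median log2FC -0.55), where 8.1% of all genes were lower. The defining basal genes Krt5 and Trp63 read 61.8 and 99.2 CPM and 13.2 and 24.6 CPM in Clu intact against 288 and 157 CPM and 61.5 and 34.7 CPM in Nkx castrate. Each had its 2 groups apart, and both were called lower (Krt5 log2FC -1.47 ± 0.32, edgeR adjusted p = 0.0192; Trp63 log2FC -1.35 ± 0.35, edgeR adjusted p = 0.0348). No basal call was stable: without Clu intact 1 the values were edgeR adjusted p = 0.128 for Krt5 and 0.19 for Trp63, without either Nkx intact library they were 0.055 to 0.0878, and 11 members were called lower without Nkx castrate 2. Single libraries left out otherwise gave 1 lower member without Clu intact 1, Nkx intact 1 or Nkx intact 2 and 2 without Clu intact 2. Summed basal markers were 4210 and 4300 CPM in Clu intact and 6580 and 4080 CPM in Nkx castrate, so the totals overlapped.

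Of 28 tested genes for mucosal defence and immune proteins, not all of them secreted, 9 were called higher and 2 lower (median log2FC 0.27). Beside Wfdc2 and Pglyrp1, the membrane mucin Muc20 and the chemokine Cxcl17 were higher and stable, both chosen after their values were seen. Muc20 read 32.9 and 38.3 CPM against 1.12 and 1.03 CPM (log2FC 5.03 ± 0.43, edgeR adjusted p = 0.000461), and Cxcl17 27.2 and 25 CPM against 2.08 and 0.887 CPM (log2FC 4.11 ± 0.62), or 4.86 without Nkx castrate 1. Cxcl15, a chemokine of lung and gland epithelium, read 48.5 and 42.2 CPM against 8.03 and 7.02 CPM (log2FC 2.59 ± 0.59). Its call ended without Clu intact 1 (edgeR adjusted p = 0.0968) or 2 (0.0932). The lower members were Pigr and lysozyme 2, Lyz2, which macrophages also express and which read 3.88 and 3.48 CPM against 54.5 and 7.02 CPM. Lyz2 moved with the leukocyte markers of Nkx castrate 1: its call ended without that library (log2FC -0.93, edgeR adjusted p = 0.0618) and without each of the others (0.0848 to 0.188) except Nkx castrate 2. Higher members numbered 5 without Clu intact 1, 4 without Clu intact 2 and 5 without Nkx intact 2, and lower members 6 when Nkx castrate 2 was dropped.

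**Figure D4:**
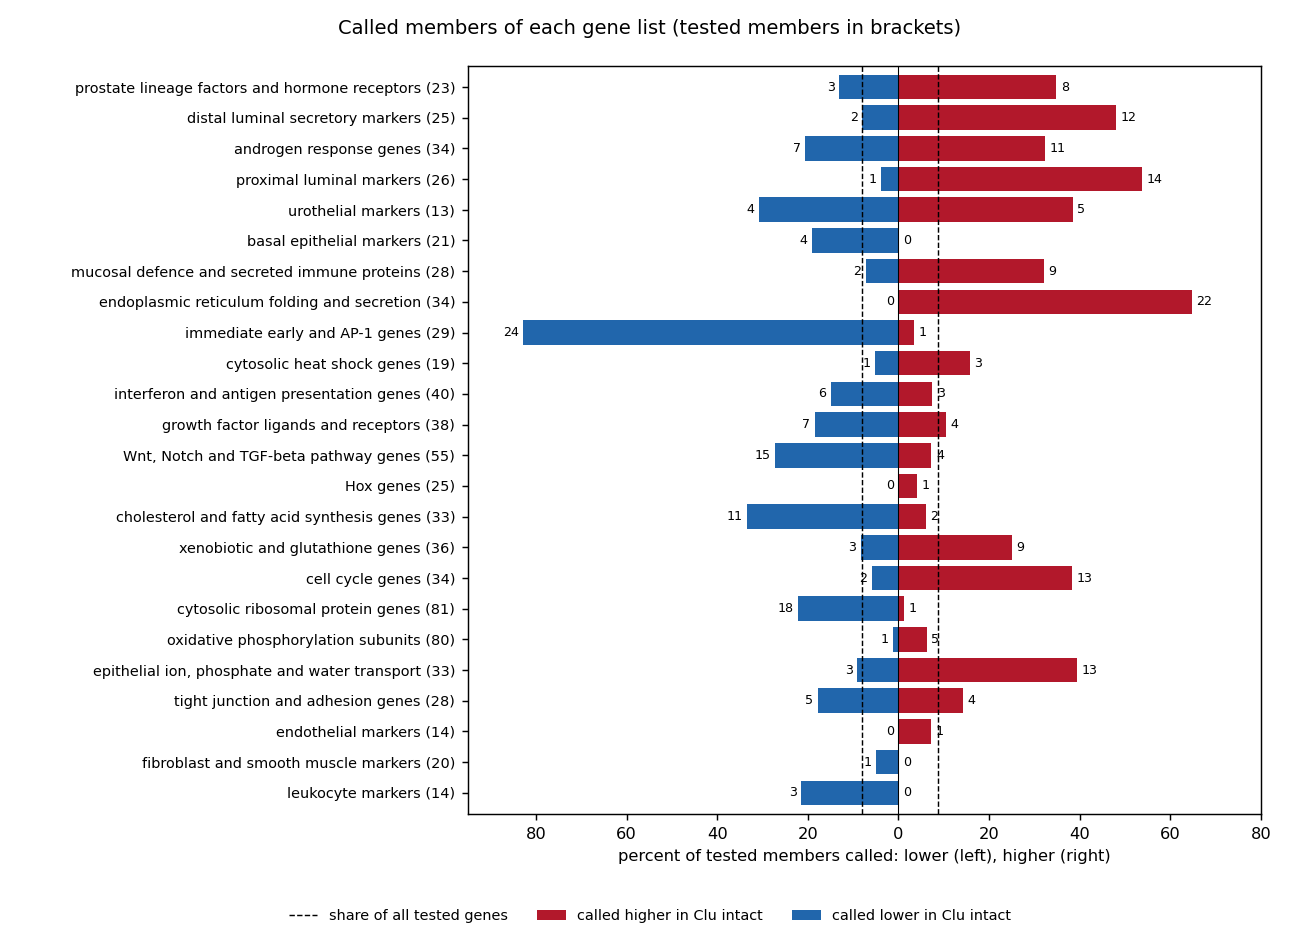
Percent of the tested members of each gene list called higher (red, right) or lower (blue, left) in Clu intact, with the counts at the bar ends, the tested members in brackets and dashed lines at the shares of all tested genes (8.82% and 8.1%). The bars for endoplasmic reticulum folding (22 of 34 higher) and for immediate early genes (24 of 29 lower) are the longest on their sides.

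Folding machinery of the endoplasmic reticulum was higher in Clu intact as a broad group. Of 34 tested genes for folding and secretion, 22 were called higher and 0 lower (median log2FC 1.23; 33 of 34 had a positive value), and they summed to 13800 and 18800 CPM against 6070 and 6250 CPM. Calreticulin, Calr, a calcium-binding chaperone of glycoproteins, read 1734 and 2362 CPM against 514 and 496 CPM (log2FC 2.02 ± 0.22, edgeR adjusted p = 0.00111). The chaperone Hsp90b1 read 1335 and 1912 CPM against 440 and 387 CPM (log2FC 1.97 ± 0.24), and the disulfide isomerase Pdia3 989 and 1353 CPM against 294 and 407 CPM (log2FC 1.74 ± 0.25). In each case both Clu intact libraries were above both castrate libraries and near the Nkx intact libraries, where Calr read 1825 and 2129 CPM. P4hb, another disulfide isomerase, read 1335 and 1667 CPM against 480 and 660 CPM (log2FC 1.40 ± 0.23), and its call ended without Clu intact 2 (edgeR adjusted p = 0.0525). The stress-induced cofactors Creld2, Sdf2l1 and Derl3, chosen after their values were seen, had the largest changes among called members. Creld2 read 255 and 360 CPM against 52.1 and 35.4 CPM (log2FC 2.81 ± 0.28). Sdf2l1 read 100 and 141 CPM against 15.3 and 7.69 CPM (log2FC 3.39 ± 0.36), and Derl3 40.7 and 58 CPM against 9.26 and 4.14 CPM (log2FC 2.87 ± 0.38). Without Nkx castrate 1 the log2FC was 3.97 for Sdf2l1 and 3.57 for Derl3.

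The central stress chaperone and the central stress factor did not pass the test, both chosen after their values were seen. Hspa5, which encodes BiP, read 1872 and 2945 CPM against 1729 and 1087 CPM (log2FC 0.77 ± 0.31, edgeR adjusted p = 0.128), and it was called higher without Nkx castrate 1 (log2FC 1.15, edgeR adjusted p = 0.00514). Xbp1, a transcription factor of the unfolded protein response, read 137 and 150 CPM against 183 and 181 CPM (log2FC -0.34 ± 0.20, edgeR adjusted p = 0.265). With 1 library left out, the number of folding genes called higher was lowest without Clu intact 2, at 11, and 18 to 29 otherwise.

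The endoplasmic reticulum stress element is a known site in promoters of such chaperones, with the letters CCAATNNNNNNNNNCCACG (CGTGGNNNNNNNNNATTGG on the other strand). This motif and 5 others, the androgen half-site among them, were searched after the values were seen. It is in 8 of 27 folding genes with a window of 250 bases before the start (29.6%), against 18 of 10687 tested genes (0.168%) and 35 of 27025 genes in the RefSeq table (0.13%). The 8 are Hspa5, Hsp90b1, Calr, Canx, Pdia6, Creld2, Dnajc3 and Derl3, all called higher except Hspa5. The windows of 3 members with values above are shown from RefSeq on GRCm38.p6, with the element in capitals. That of Calr is chr8:84846932-84847181 on the minus strand, that of Creld2 chr15:88819396-88819645 on the plus strand, and that of Hsp90b1 chr10:86705445-86705694 on the minus strand.
Calr: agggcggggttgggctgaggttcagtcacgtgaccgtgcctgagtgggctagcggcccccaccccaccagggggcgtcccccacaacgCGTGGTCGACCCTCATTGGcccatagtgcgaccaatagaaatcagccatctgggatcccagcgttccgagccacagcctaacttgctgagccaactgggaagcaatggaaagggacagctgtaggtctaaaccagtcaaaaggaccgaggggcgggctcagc
Creld2: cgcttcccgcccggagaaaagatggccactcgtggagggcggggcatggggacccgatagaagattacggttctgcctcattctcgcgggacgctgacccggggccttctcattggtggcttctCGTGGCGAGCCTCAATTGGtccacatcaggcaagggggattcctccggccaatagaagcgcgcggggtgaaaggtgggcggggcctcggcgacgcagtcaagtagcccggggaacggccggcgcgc
Hsp90b1: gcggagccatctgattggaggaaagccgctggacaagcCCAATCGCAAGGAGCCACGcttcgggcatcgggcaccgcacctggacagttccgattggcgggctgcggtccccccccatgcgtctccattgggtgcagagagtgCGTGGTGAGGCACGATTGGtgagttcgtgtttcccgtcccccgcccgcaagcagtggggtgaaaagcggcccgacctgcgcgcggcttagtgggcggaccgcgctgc
The element lies from 162 to 144 bases before the start in Calr and from 126 to 108 in Creld2, both in the reverse orientation. Hsp90b1 holds 2 copies, from 212 to 194 and from 107 to 89 bases before the start, in opposite orientations. These matches describe the letters and show no binding. The other 4 motifs were counted on both strands in the same kind of window. In the 22 immediate early genes with a window the cAMP response element (TGACGTCA) was in 3 (13.6%, against 2.96% of tested genes), the serum response element in 2 (9.09% against 1.49%) and the AP-1 site (TGAGTCA or TGACTCA) in 0 (against 4.26%). The sterol regulatory element (TCACCCCAC, or GTGGGGTGA on the other strand) was in 1 of 24 cholesterol and fatty acid synthesis genes (4.17% against 0.646%).

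Immediate early genes, which cells switch on within minutes of a stimulus, were the list with the largest share of lower members among the 26 described. Of 29 tested, 24 were called lower in Clu intact and 1 higher (median log2FC -1.92), and they summed to 9330 and 8140 CPM against 38200 and 36800 CPM. The zinc finger factor Egr1 read 888 and 823 CPM against 6203 and 5902 CPM (log2FC -2.82 ± 0.19, edgeR adjusted p = 0.000213). The AP-1 subunit genes Fos and Jun read 910 and 762 against 4068 and 5133 CPM (log2FC -2.46 ± 0.23), and 1343 and 962 against 4276 and 5334 CPM (log2FC -2.06 ± 0.24). The orphan receptor Nr4a1 read 494 and 499 CPM against 3496 and 3027 CPM (log2FC -2.72 ± 0.19). All 4 were stable, with the castrate libraries several times above the Clu intact libraries. The Nkx intact libraries were as high as the castrates for the group, summing to 38500 and 34400 CPM, with Egr1 at 5102 and 4955 CPM and Nr4a1 at 3331 and 3260 CPM. Both libraries of the Clu;tdTomato line were thus below all 4 of the Nkx3.1;EYFP line in this sum. Line, population and any difference in handling of the cells cannot be told apart for it, and their parts were not tested. With single libraries left out, 20 to 26 members were called lower. The 1 higher member was Ccn2, a matricellular protein induced by Yap, at 75.9 and 63.3 CPM against 18.2 and 16.7 CPM (log2FC 1.99 ± 0.35). Klf2, Klf10, Dusp1 and Socs3 did not pass, and of these Klf10 read 126 and 109 CPM against 133 and 128 CPM (these 5 genes were chosen after their values were seen). Klf2 was called higher once Nkx castrate 1 was dropped (log2FC 1.74, edgeR adjusted p = 0.00156), and once Nkx castrate 2 was dropped Dusp1 (log2FC -1.09, edgeR adjusted p = 0.00231) and Socs3 (-2.08, 0.0037) were called lower. Srf, which encodes the serum response factor that drives many of these genes and lies outside the list, read 91.6 and 93.9 CPM against 598 and 492 CPM (log2FC -2.55 ± 0.18, edgeR adjusted p = 0.000245; chosen after its values were seen).

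**Figure D5:**
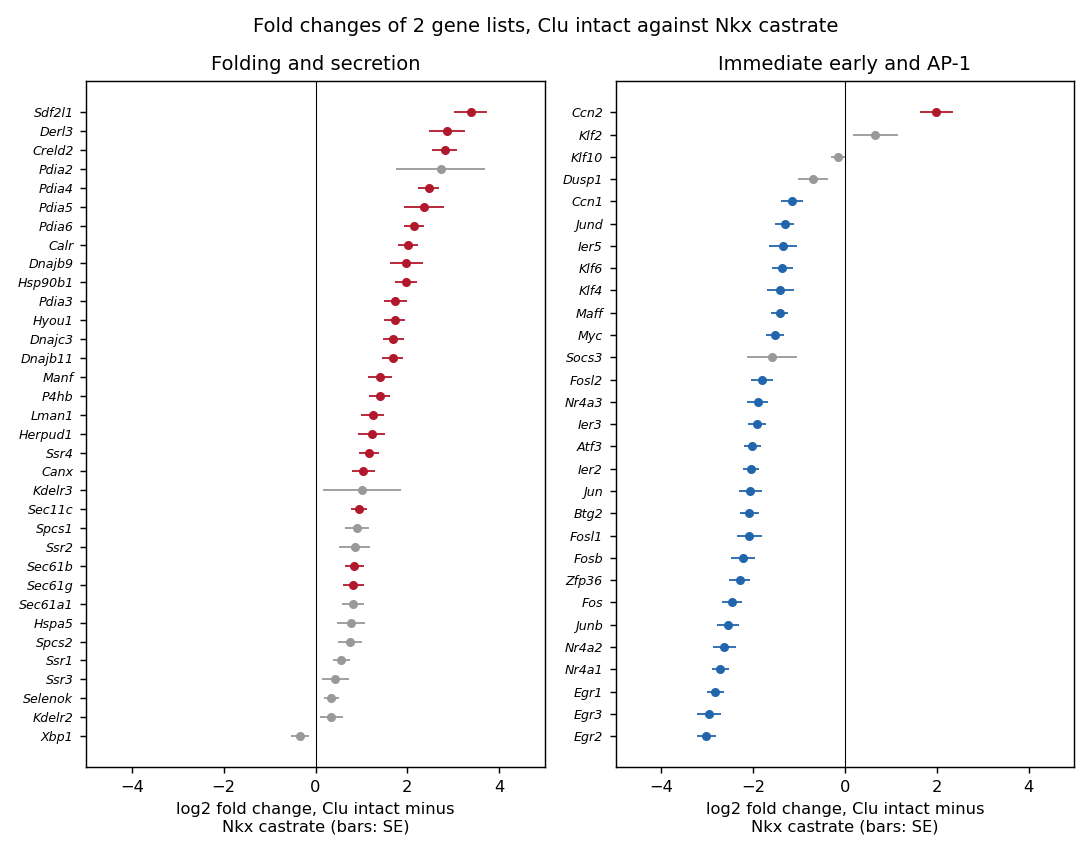
Log2 fold change (Clu intact minus Nkx castrate, bars for the SE) of each tested gene for endoplasmic reticulum folding (left) and of each immediate early gene (right), red where called higher, blue where called lower and grey where not called. In the left panel 33 of 34 genes lie above 0, and in the right panel 24 of 29 are called lower.

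Cell cycle genes were called higher for 13 of 34 tested members and lower for 2 (median log2FC 1.81). Ccnd1, the G1 cyclin D1, read 176 and 227 CPM against 54.8 and 46.3 CPM (log2FC 1.99 ± 0.20, edgeR adjusted p = 0.000849), and its kinase partner Cdk6 164 and 147 CPM against 28.2 and 52.1 CPM (log2FC 1.95 ± 0.31). The proliferation marker Mki67 and the topoisomerase Top2a, chosen after their values were seen, were low in both castrate libraries. Mki67 read 68.3 and 120 CPM against 6.96 and 1.33 CPM (log2FC 4.47 ± 0.67), and Top2a 31.1 and 51.1 CPM against 3.14 and 0.739 CPM (log2FC 4.36 ± 0.64). These 4 were stable. The size rested in part on 1 castrate library: dropping Nkx castrate 1 gave a log2FC of 6.13 for Mki67 and 5.78 for Top2a, and dropping Nkx castrate 2 gave 3.76 and 3.71. Cdkn1a, the cell cycle inhibitor p21, was lower at 46.7 and 38.3 CPM against 105 and 99.5 CPM (log2FC -1.26 ± 0.32), a call that ended without Clu intact 1 (edgeR adjusted p = 0.109) or 2 (0.23). Higher members numbered 7 without Clu intact 1, 5 without Clu intact 2 and 7 when either Nkx intact library was dropped, but 20 when Nkx castrate 1 was.

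Wnt, Notch and TGF-beta pathway genes leaned lower, with 4 of 55 tested called higher and 15 lower (median log2FC -0.27). The shares over all genes were 8.82% higher and 8.1% lower. Feedback targets of Wnt signalling were among the lower genes. Axin2, a Wnt target that restrains beta-catenin, read 95.3 and 93.5 CPM against 215 and 319 CPM (log2FC -1.50 ± 0.22, edgeR adjusted p = 0.0038), and Rnf43, which removes Wnt receptors, 66 and 64.2 CPM against 232 and 307 CPM (log2FC -2.05 ± 0.19). Wnt4, a ligand, was higher, at 172 and 177 CPM against 23.5 and 32 CPM (log2FC 2.66 ± 0.25). These 3 genes were chosen after their values were seen and were stable. The Notch and signal-responsive factor Hes1 read 189 and 167 CPM against 438 and 700 CPM (log2FC -1.68 ± 0.24), also stable. Id1, a target of BMP signalling, Smad7, an inhibitor of the TGF-beta pathway, and Lrp5, a Wnt co-receptor, had calls that ended with Clu intact 2 left out (edgeR adjusted p = 0.194, 0.179 and 0.146), and Id1 and Lrp5 also without Clu intact 1 (0.146 and 0.0968) or Nkx intact 2 (0.0738 and 0.0541), and Id1 without Nkx intact 1 (0.0749). They read 233 and 227 against 346 and 534 CPM (Id1), 181 and 138 against 346 and 280 CPM (Smad7) and 292 and 307 against 150 and 189 CPM (Lrp5). Lower members numbered 9 without Clu intact 1 and 5 without Clu intact 2, and higher members 16 without Nkx castrate 1.

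Growth factors and receptors were called higher for 4 of 38 tested members and lower for 7 (median log2FC -0.41). Over all genes 8.82% were called higher and 8.1% lower. The angiogenic ligand Vegfa read 87.1 and 87.4 CPM against 566 and 895 CPM (log2FC -3.07 ± 0.25, edgeR adjusted p = 0.00041). Hbegf, a ligand of the EGF receptor, read 316 and 283 CPM against 1228 and 1125 CPM (log2FC -1.98 ± 0.20). In contrast, the receptor Fgfr3 and the insulin-like growth factor binding protein Igfbp5, chosen after their values were seen, were higher. Fgfr3 read 189 and 167 CPM against 28.9 and 22.7 CPM (log2FC 2.79 ± 0.24), and Igfbp5 406 and 437 CPM against 49.8 and 33.1 CPM (log2FC 3.34 ± 0.25). All 4 were stable. Vegfa and Fgfr3 stood apart in 1 group each, as Nkx intact cells read 158 and 150 CPM of Vegfa and 22.7 and 16.3 CPM of Fgfr3, whereas Igfbp5 read 616 and 498 CPM in Nkx intact, above both castrate libraries. Dropping Nkx castrate 2 gave 7 higher and 14 lower members, dropping Nkx castrate 1 gave 9 higher members, and dropping Clu intact 1 or either Nkx intact library gave 2.

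Genes for ion, phosphate and water transport were called higher for 13 of 33 tested members and lower for 3 (median log2FC 0.74), with a summed level of 11100 and 12000 CPM against 3550 and 4800 CPM. Atp1b1, which encodes a sodium pump beta subunit, read 1332 and 1388 CPM against 118 and 205 CPM (log2FC 3.08 ± 0.28, edgeR adjusted p = 0.000603). Ano1, a calcium-activated chloride channel, read 842 and 1068 CPM against 160 and 160 CPM (log2FC 2.58 ± 0.19). Both were stable. Slc12a2, the sodium, potassium and chloride importer NKCC1, read 3853 and 4100 CPM against 821 and 1883 CPM (log2FC 1.56 ± 0.36), with Nkx intact at 127 and 108 CPM. Its call ended without any 1 of the Clu intact or Nkx intact libraries (edgeR adjusted p = 0.0557 to 0.0938), and the log2FC was 2.29 without Nkx castrate 2. The amino acid transporter Slc7a5, chosen after its values were seen, was lower and stable, at 108 and 99.5 CPM against 304 and 361 CPM (log2FC -1.68 ± 0.21). Higher members numbered 9 to 17 with single libraries left out.

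Detoxifying and glutathione genes were called higher for 9 of 36 tested members and lower for 3 (median log2FC 0.40). Cbr2, a carbonyl reductase, read 736 and 816 CPM against 50.5 and 47.8 CPM (log2FC 3.98 ± 0.18, edgeR adjusted p = 9.99e-05), and Gsta4, which conjugates lipid aldehydes to glutathione, 298 and 331 CPM against 9.26 and 13.3 CPM (log2FC 4.80 ± 0.26). The retinal dehydrogenase gene Aldh1a1, chosen after its values were seen, read 160 and 194 CPM against 21.3 and 16.3 CPM (log2FC 3.24 ± 0.21). These 3 were stable. Nkx intact libraries were above Clu intact for Aldh1a1, at 288 and 316 CPM, and below it for Cbr2, at 93.4 and 103 CPM. Gpx3, a secreted glutathione peroxidase, was lower, at 528 and 1609 CPM against 2814 and 3860 CPM (log2FC -1.64 ± 0.46, edgeR adjusted p = 0.045). Its Clu intact libraries differed by more than those of the other genes named here for the list. The Gpx3 call ended without Clu intact 1 (log2FC -1.03, edgeR adjusted p = 0.0884) or either Nkx intact library (0.101 and 0.102), and the log2FC was -2.63 without Clu intact 2. Higher members numbered 14 without either Nkx castrate library.

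Cholesterol and fatty acid synthesis genes were called lower for 11 of 33 tested members and higher for 2 (median log2FC -0.70). Fdft1, which makes squalene, read 26.8 and 34.3 CPM against 90.2 and 95.7 CPM (log2FC -1.60 ± 0.20, edgeR adjusted p = 0.00223). Elovl5, which elongates fatty acids, was higher, at 97.2 and 114 CPM against 40.4 and 27.5 CPM (log2FC 1.64 ± 0.24). Both were stable. Srebf2, the transcription factor of cholesterol synthesis, read 138 and 146 CPM against 271 and 276 CPM (log2FC -0.95 ± 0.16), and its call ended without Clu intact 1 (edgeR adjusted p = 0.0876) or 2 (0.0838). Lower members numbered 5 without either Clu intact library.

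Cytosolic ribosomal protein genes were called lower for 18 of 81 tested members and higher for 1 (median log2FC -0.63), and counts of many are uncertain because of processed pseudogenes. Rpsa, which encodes a small subunit protein, read 1324 and 1367 CPM against 1919 and 2970 CPM (log2FC -0.86 ± 0.23, edgeR adjusted p = 0.04), and its call ended without any 1 of the Clu intact or Nkx intact libraries (edgeR adjusted p = 0.102 to 0.21). Dropping Nkx castrate 1 raised the lower count to 71, and dropping Nkx castrate 2 left it at 17. It was 2 when either Clu intact library was dropped, 3 for Nkx intact 1 and 4 for Nkx intact 2. The castrate libraries differed here, with summed levels of 45900 and 68300 CPM against 35500 and 39300 CPM in Clu intact. Subunits of oxidative phosphorylation were called higher for 5 of 80 and lower for 1 (median log2FC 0.36), below the 8.82% and 8.1% of all genes. Dropping Nkx castrate 2 raised the higher calls to 35, while 1 and 0 were left without Clu intact 1 and 2, and 2 when either Nkx intact library was dropped. Ndufa13, a subunit of complex I, read 108 and 123 CPM against 51.5 and 74.4 CPM (log2FC 0.88 ± 0.22), a call that ended without any 1 of the Clu intact or Nkx intact libraries (edgeR adjusted p = 0.0665 to 0.204).

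Of 40 tested interferon and antigen presentation genes, 3 were called higher and 6 lower, where 8.82% and 8.1% of all genes were. The higher ones were Oas1a (chosen after its values were seen), B2m and H2-D1. The median log2FC was 0.04, a sign that turned negative, -0.012, with upper quartile scaling. B2m, the shared light chain of class I, read 1297 and 1660 CPM against 233 and 382 CPM (log2FC 2.27 ± 0.28, edgeR adjusted p = 0.0021) and was stable. The class I heavy chain genes, whose close copies make their counts uncertain, differed in direction. H2-D1 was called higher, at 762 and 1220 CPM against 497 and 434 CPM (log2FC 1.09 ± 0.24, edgeR adjusted p = 0.0196), and H2-Q4 lower, at 58.2 and 59.1 CPM against 143 and 92.2 CPM (log2FC -1.0 ± 0.24, edgeR adjusted p = 0.0256). H2-T23 was also lower, at 63.6 and 36 CPM against 103 and 143 CPM (log2FC -1.30 ± 0.30), and H2-K1 did not pass, at 601 and 723 CPM against 555 and 486 CPM (both chosen after their values were seen). Calls of H2-D1, H2-Q4 and H2-T23 ended without either Nkx intact library (edgeR adjusted p = 0.0523 to 0.063) or without Clu intact 2 (0.155, 0.179 and 0.165), and that of H2-Q4 also without Clu intact 1 (0.155). Cd74, the invariant chain of class II molecules, read 23.3 and 26.5 CPM against 269 and 69.6 CPM (log2FC -2.77 ± 0.54, edgeR adjusted p = 0.0124). The class II genes H2-Aa, H2-Ab1 and H2-Eb1, chosen after their values were seen, were called lower as well, with log2FC of -2.41, -2.95 and -3.40. The class II genes moved with the 14 tested leukocyte markers, of which 3 were called lower. The leukocyte list summed highest in Nkx castrate 1, and both Nkx intact libraries, at 125 and 115 CPM, were also above Clu intact. The part of such cells was not tested. The log2FC of Cd74 was -1.48 (edgeR adjusted p = 0.000265) with Nkx castrate 1 dropped and -3.42 with Nkx castrate 2 dropped. The Cd74 call ended without Clu intact 1 (edgeR adjusted p = 0.0707) or 2 (0.0763). For H2-Aa, H2-Ab1 and H2-Eb1 the same omissions gave -1.21, -1.48 and -1.60 (Nkx castrate 1) and -3.04, -3.65 and -4.16 (Nkx castrate 2). The 3 calls ended without Clu intact 1 (edgeR adjusted p = 0.0711 to 0.117) or 2 (0.101 to 0.131), that of H2-Aa also without either Nkx intact library (0.0535 and 0.0549) and that of H2-Eb1 without Nkx intact 2 (0.0518). Lower members of the list numbered 1 without Clu intact 1, 0 without Clu intact 2, 3 and 2 without Nkx intact 1 and 2, and 9 when Nkx castrate 2 was dropped.

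Junction genes changed in both directions, with 4 of 28 tested called higher and 5 lower (median log2FC 0.11). Over all genes 8.82% were called higher and 8.1% lower. These are also the shares to set beside the heat shock and Hox counts below that use every library. The claudin gene Cldn4 read 505 and 439 CPM against 1631 and 2322 CPM (log2FC -2.07 ± 0.23, edgeR adjusted p = 0.00146) and was stable. Its relative Cldn10, given above, went the other way. Higher junction genes numbered 2 without Clu intact 2 and 10 when Nkx castrate 2 was dropped, and lower ones 1 without Clu intact 1 and 3 without Clu intact 2. Ctnnb1, which encodes beta-catenin, read 703 and 780 CPM against 353 and 366 CPM (log2FC 1.05 ± 0.16), and its call ended without Clu intact 2 (edgeR adjusted p = 0.0578). Of 19 tested cytosolic heat shock genes, 3 were called higher and 1 lower (median log2FC 0.34), with 1 to 5 higher when single libraries were dropped. Hspa4l, an Hsp110 relative, was the stable one, at 57.4 and 72 CPM against 13.5 and 10.8 CPM (log2FC 2.41 ± 0.24). The stress-inducible Hspa1a and Hspa1b, chosen after their values were seen and near-identical to each other, did not pass, at 558 and 348 against 729 and 417 CPM and 1187 and 1094 against 1518 and 967 CPM. Of 25 tested Hox genes, Hoxa13, a factor of the terminal urogenital tract, was the 1 called (higher), at 40 and 45.7 CPM against 21.6 and 24.8 CPM (log2FC 0.88 ± 0.23), and its call ended in each case where 1 library was left out except Nkx castrate 2 (edgeR adjusted p = 0.0537 to 0.275). Dropping Nkx castrate 1 gave 4 higher Hox genes, and dropping Nkx castrate 2 gave 3 higher and 3 lower.

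Markers of cells outside the epithelium gave calls that depended on single libraries, while their values leaned to 1 side. Endothelial markers had a log2FC above 0 in 14 of 14 (median 1.53). Of 20 fibroblast and smooth muscle markers 14 were below 0 (median -1.15), and of 14 tested leukocyte markers 13 were (median -2.76). Among the leukocyte markers 3 were called lower, where 8.1% of all genes were. Of 14 endothelial markers 1 was called higher, the claudin gene Cldn5, at 49.8 and 19.9 CPM against 2.58 and 0.813 CPM (log2FC 4.33 ± 0.83, edgeR adjusted p = 0.011). All 14 were called higher without Nkx castrate 1, with a log2FC of 5.41 for Cldn5, while the Cldn5 call ended without Clu intact 1 (log2FC 3.56, edgeR adjusted p = 0.109). Of 20 fibroblast and smooth muscle markers 1 was called lower, the intermediate filament gene Des, at 17.9 and 17.3 CPM against 200 and 52 CPM (log2FC -2.84 ± 0.62, edgeR adjusted p = 0.0184). Its log2FC was -1.56 if Nkx castrate 1 was left out and -3.50 if Nkx castrate 2 was, and its call ended without Clu intact 1 (edgeR adjusted p = 0.0898) or 2 (0.117). With Nkx castrate 1 dropped 7 of these markers were called higher, and with Nkx castrate 2 dropped 12 were called lower. Leukocyte markers were called lower for 11 of 14 when Nkx castrate 2 was dropped and for 1 when Nkx castrate 1 was.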

How the data were processed

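The deposited table holds the authors' raw counts of reads for 24498 gene symbols in 6 libraries, and 4599 symbols had no count. Per the labels, libraries were made from 2 ng of total RNA of sorted cells with a low-input stranded kit. Tools were STAR 2.7.9a, featureCounts, Subread 2.0.1 and FastQC 0.11.9, with the build GRCm39, per the submitters' processing notes. How strand, molecular identifiers and multiply aligned reads were treated, and which annotation was used, is not given in the sources used here, so counts of near-identical, overlapping and antisense genes are uncertain.

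In R 4.3.3, edgeR 4.0.16 filtered genes (filterByExpr, 13846 kept), scaled libraries by TMM, and fitted a mean per group over all 6 libraries (residual degrees of freedom 3, with a prior of 4.86, and a biological coefficient of variation of 33.7%). Clu intact was tested against Nkx castrate with the two-sided quasi-likelihood F test and Benjamini-Hochberg adjustment over all tested genes, at 0.05 and with no fold minimum. SE values come from the model, and replicate numbers were not treated as pairs. Intervals (95%, exact from the binomial) and floors (3 counts) cover counting error only. Library totals set the precision of low levels. Alternatives included DESeq2 1.42.0, limma 3.58.1 (voom), other scalings and filters, and leaving out each library. Leaving out 1 of a pair leaves a lone library that is assumed to vary like the other groups.

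Named genes were, per direction, the 10 largest called changes with a mean of at least 10 CPM in the higher group and no overlap, and the 10 called genes with the highest mean CPM, of which some appear only within their lists. To these came up to 4 called members of each of 26 gene lists by mean CPM, and Clu. Results for some genes of the rule and the lists are not reported here. The text marks genes outside this rule as chosen after their values were seen. The comparison, its lists and rules were chosen with earlier results of these data known. Promoter windows are RefSeq sequences on GRCm38.p6, matched by symbol (76 of 110 named genes). No coordinates of the deposited build are given.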

Additional observations from a re-analysis of the deposited data

How the results depend on the processing

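Higher and lower calls, 1221 and 1121 as reported, were 417 to 2010 and 270 to 1844 when 1 library was left out. DESeq2 gave 1636 and 1732, no filter on low counts 1782 and 1736, and a test against a 2-fold minimum 342 and 241. The cause of the gains in lower calls was not tested. Other settings stayed within 1.5 times: 1182 and 1158 with RLE scaling, 1191 and 1309 with upper quartile scaling, 1442 and 1041 with library totals only, 1227 and 1132 without ribosomal RNA, 1224 and 1219 for genes averaging 10 CPM or more, 1341 and 989 with limma-voom, and 850 and 766 with only the 4 compared libraries. No gene called in the main analysis was called in the opposite direction under any of these settings. Of 204 called genes among those examined by name, 202 kept their call with RLE scaling, 200 with upper quartile scaling, 202 with DESeq2, 189 with limma-voom and 159 with the 4 libraries only.

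A fit with the replicate number as a block gave 1469 and 1310 calls, and 202 of the 204 genes kept theirs. The labels do not link libraries with the same replicate number, and whether such libraries were handled as pairs was not tested. Deviations from the group means correlated at 0.28 between Clu intact and Nkx castrate, 0.0706 between the intact groups and 0.115 between the Nkx groups.

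The groups hold 2 libraries each, so an outlying library cannot be told from a deviating partner. Genes with at most 3 counts over a group (27 of the higher and 31 of the lower calls) have no precise fold at this depth.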

Other observations

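Genes outside the lists, chosen after their values were seen and so given as a description, included several of the more uniform differences, and each named in this paragraph was called whichever library was left out. Gdf15, a growth factor family member induced by cell stress, read 4.72 and 6.77 CPM in Clu intact and 223 and 387 CPM in Nkx castrate (log2FC -5.73 ± 0.38, edgeR adjusted p = 0.000209), with 15.3 and 21.4 CPM in Nkx intact. Stc2, the secreted glycoprotein stanniocalcin 2, read 7.68 and 9.41 CPM against 198 and 208 CPM (log2FC -4.57 ± 0.24), and Ahr, the ligand-activated receptor of aromatic compounds, 99 and 86.8 CPM against 441 and 508 CPM (log2FC -2.35 ± 0.19). For all 3 the castrate libraries were also above both Nkx intact libraries. Cry2, a clock repressor, read 41.1 and 33.1 CPM against 254 and 232 CPM (log2FC -2.71 ± 0.23), with 163 and 115 CPM in Nkx intact. In the other direction, Mmp7, a matrix protease that activates defensins, read 1141 and 1122 CPM against 29.1 and 52 CPM (log2FC 4.80 ± 0.30), and Anxa1, a phospholipid-binding protein that dampens inflammation, 473 and 570 CPM against 33.3 and 19.8 CPM (log2FC 4.29 ± 0.29). Osr1, a zinc finger factor of urogenital development, read 87.7 and 141 CPM against 2.81 and 1.33 CPM (log2FC 5.76 ± 0.44, or 6.42 without Nkx castrate 1). Glycosyltransferase genes beside Abo were low in both Nkx groups, at no more than 4.35 CPM in any Nkx library: Mgat3 read 110 and 119 CPM against 3.37 and 1.18 CPM, and B4galnt2 32.8 and 43.3 CPM against 0.449 and 0.222 CPM. Their log2FC was 5.61 ± 0.46 and 6.74 ± 0.54, and with Nkx castrate 1 dropped it was 6.58 and 7.35.

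A few genes were at 0 in whole sets of libraries. In 7 genes both Clu intact libraries had 0 counts while all 4 Nkx libraries of both hormone states had at least 1 CPM: Camk2b, Trim12a, Pcdh9, Slc22a29, Tfap2e, the small nucleolar RNA Snord87 and the ribosomal pseudogene Rpl9-ps1. Pcdh9, a protocadherin, read 4.49 and 2.22 CPM in the castrate libraries, where Nkx intact had 15 and 17.2 CPM, and was at least 26.3-fold lower in Clu intact than in Nkx castrate. The opposite pattern, 0 counts in all 4 Nkx libraries, was found for 3 genes, Clca1, Tmprss4 and the anion exchanger Slc26a4. In 12 genes the 4 intact libraries of both lines had 0 counts and both castrate libraries at least 1 CPM, and 7 of these were called. Mt3, a metallothionein, was the 1 gene with 0 counts in both castrate libraries and at least 1 CPM in all 4 intact libraries, at 9.53 and 4.33 CPM in Clu intact (at least 73.9-fold higher) and 15.7 and 17.7 CPM in Nkx intact. Mouse line and marked population differ together in the first pair of patterns and cannot be told apart.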
